A study of Homo sapiens with 6 samples.

Results

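A set of 10 genes of the m6A system were followed in FaDu cells, an established line of hypopharyngeal squamous carcinoma, with and without knockdown of the RNA methyltransferase NSUN2. They were chosen by name from a table of 58825 genes, as 3 writer genes (METTL3, METTL14, WTAP), 2 eraser genes (FTO, ALKBH5), 3 YTHDF readers (YTHDF1, YTHDF2, YTHDF3) and 2 IGF2BP readers (IGF2BP2, IGF2BP3). All 10 passed the filter on low counts, which left 19081 genes to test. The shNSUN2 group held 3 RNA sequencing libraries of FaDu cells carrying a short hairpin RNA against NSUN2. The other group, FaDu, held 3 libraries of the same line with no hairpin. As none of the libraries carried a control hairpin, loss of NSUN2 and the presence of a hairpin cannot be told apart. Whether the knockdown cells were 1 clone or a pool, and whether replicates were separate cultures, is not given in the sources used here. A design note of the series speaks of 3 pairs without saying what a pair shared. Each p-value thus speaks for these 6 libraries alone, whose spread may be technical.

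N6-methyladenosine, or m6A, is a methyl mark placed on adenosines of mRNA, chiefly near stop codons and in long internal exons. METTL3 carries out the methylation in a dimer with METTL14, which helps to hold the RNA, and WTAP keeps the dimer in nuclear speckles. FTO and ALKBH5 are oxygenases that can remove the mark. YTHDF proteins bind the mark in the cytoplasm and are best known for speeding mRNA decay, whereas IGF2BP proteins are known for stabilising the mRNAs they bind. NSUN2 places a different mark, 5-methylcytosine, and is not part of the m6A system. The libraries measured mRNA levels only, and no m6A was measured.

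Of the 10 members, 2 passed the test between the groups, METTL3 higher and IGF2BP2 lower in shNSUN2 cells. IGF2BP2 mRNA stood at 40.2% of its FaDu level, and METTL3 mRNA at 179% of its own. The other 8 members, among them METTL14, WTAP, both erasers and IGF2BP3, did not pass. Across all tested genes edgeR called 18.5%, 8.54% higher and 9.97% lower, so 2 of 10 members is near the share in the whole table. The groups did not overlap for 3 of the 10 members, METTL3, YTHDF1 and IGF2BP2, against 42.3% of all tested genes. The members' median log2 fold change was 0.10, against -0.0069 over all tested genes. In bulk RNA a change in the share of cells that hold a transcript and a change in its amount per cell cannot be told apart.

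The libraries held 53612358 to 72788971 estimated counts. NSUN2 had 50.4, 34.6 and 39.6 CPM (counts scaled to the TMM-adjusted library total) in shNSUN2 replicates 1, 2 and 3, and 169, 173 and 156 CPM in FaDu replicates 1, 2 and 3. The knockdown came to a log2 fold change of -1.997 (SE 0.16, edgeR adjusted p = 0.000526). The 8 squamous epithelial markers, such as KRT5 and TP63, were detected in both groups and summed to 1821 to 2205 CPM in shNSUN2 and 3507 to 3682 CPM in FaDu. Of these 8, 6 were called lower, EPCAM was called higher (log2 fold change 0.57, edgeR adjusted p = 0.0125) and CDH1 was not called, and most of the summed level came from KRT5, KRT17 and CDH1. Of 6 leukocyte markers, 4 were detected in shNSUN2 and 2 in FaDu, summing to 9.32 to 11.8 CPM in shNSUN2 and 8.25 to 10.6 CPM in FaDu, most of it from CD14, and PTPRC was listed at 0 in every library. All 6 prostate markers were detected in shNSUN2, summing to 35.5 to 55.4 CPM, against 5 of 6 in FaDu with 14.8 to 18.0 CPM and MSMB at 0. The 5 plasma cell markers summed to 1.90 to 5.11 CPM in shNSUN2 and at most 0.267 CPM in FaDu. The 3 of them that were tested, IGKC, IGHG1 and IGHA1, were called higher (edgeR adjusted p = 0.0101, 0.0235 and 0.0131). The 6 fibroblast markers summed to 6.44 to 11.6 CPM in shNSUN2 and 9.04 to 9.49 CPM in FaDu. Of these 5 were tested, and only COL1A2, at 0 in every FaDu library, was called (higher, edgeR adjusted p = 0.0127). The part of these transcripts in the results was not tested. Within its group, replicate 3 of shNSUN2 stood apart by base composition. Across 19033 genes, which are not independent replicates, GC content and the log2 difference between shNSUN2 replicates 3 and 1 had a Spearman rho of 0.419. The rho was 0.359 for shNSUN2 replicates 3 and 2, and 0.059 for shNSUN2 replicates 2 and 1. FaDu libraries were not compared in this way.

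**Figure D1:**
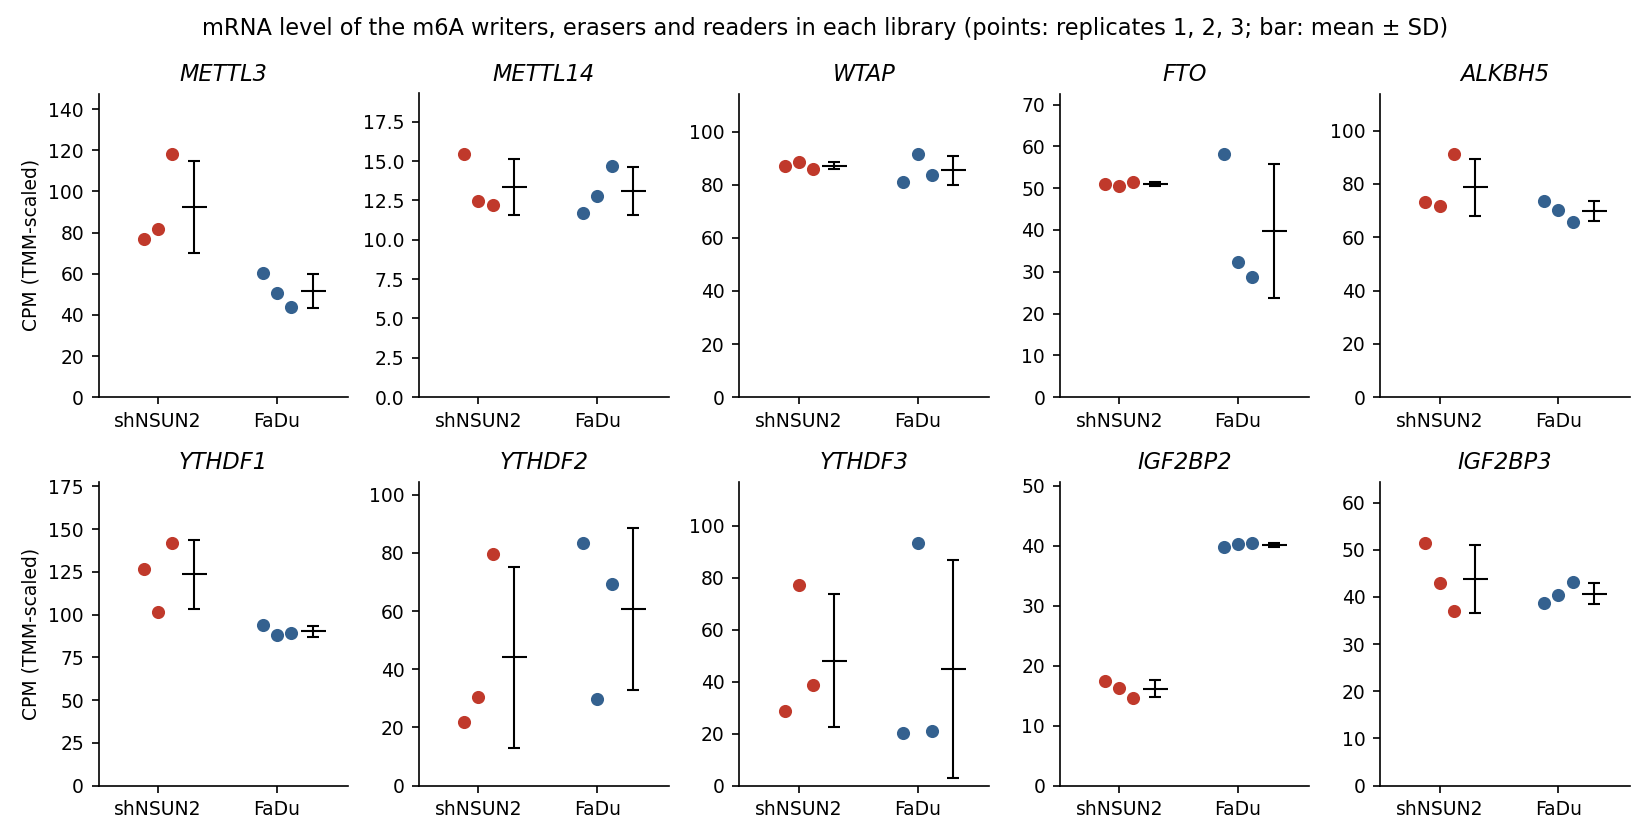
Level of each member in each library, as TMM-scaled CPM on a linear axis from 0, with shNSUN2 replicates 1, 2 and 3 in red and FaDu replicates 1, 2 and 3 in blue, and the mean ± SD beside them. IGF2BP2 lies between 14.7 and 17.5 CPM in shNSUN2, below all FaDu libraries, while YTHDF2 and YTHDF3 spread widely inside both groups.

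Of the writer genes, METTL3 rose and METTL14 and WTAP did not pass the test. METTL3, the catalytic subunit, lies on the minus strand of chromosome 14 from 21498133 to 21511375 (GRCh38, GENCODE 29). It had 77.1, 81.9 and 118 CPM in shNSUN2 libraries, against 60.4, 50.6 and 44.0 CPM in FaDu libraries. Every shNSUN2 library was above every FaDu library, with replicate 3 the highest of its group. The means were 92.4 ± 22.4 CPM in shNSUN2 and 51.7 ± 8.22 CPM in FaDu (SD, n = 3 each). This is a log2 fold change of 0.84 (SE 0.20, 95% interval 0.38 to 1.295, edgeR adjusted p = 0.0244). Without shNSUN2 replicate 3 it was 0.63 and still called (edgeR adjusted p = 0.0216). Without FaDu replicate 2 or 3 it was 0.82 and 0.73 and no longer called (edgeR adjusted p = 0.0922 and 0.105). With the replicate number as a block it was 0.82 and not called (edgeR adjusted p = 0.0585). Of its merged exon bases 6.58% also belong to TOX4 on the opposite strand, which was itself at 0.33 on the log2 scale (SE 0.20, edgeR adjusted p = 0.289). Whether counting kept strand is not given in the sources used here, so reads from these shared bases cannot be assigned.

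METTL14, on chromosome 4 from 118685368 to 118715433, had the fewest reads of the writer genes. Its levels were 15.4, 12.4 and 12.2 CPM in shNSUN2 and 11.7, 12.8 and 14.7 CPM in FaDu. The groups overlapped almost fully, and the log2 fold change was 0.03 with a 95% interval of -0.35 to 0.41 (edgeR adjusted p = 0.919). It just overlaps the interval of METTL3, which starts at 0.38, and the difference between these genes was not tested. Per exon length, METTL3 exceeded METTL14 by 5.81, 7.67 and 11.3 times in shNSUN2 and by 5.998, 4.60 and 3.48 times in FaDu. These ratios overlapped, since shNSUN2 replicate 1 lay below FaDu replicate 1. The size of the ratios depends on the length used for each gene. Their mean log2 difference between the groups was 0.80, with merged exons and with the longest transcript alike.

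WTAP, on chromosome 6 from 159725585 to 159756319, was among the steadiest members. It had 87.2, 88.5 and 85.8 CPM in shNSUN2 and 81.2, 91.5 and 83.6 CPM in FaDu, with a log2 fold change of 0.03 (95% interval -0.22 to 0.28, edgeR adjusted p = 0.879). SOD2, a mitochondrial superoxide dismutase gene that shares 4.64% of the WTAP exon bases on the opposite strand, had a log2 fold change of -1.44 (edgeR adjusted p = 0.00238).

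Neither eraser passed the test in edgeR or in DESeq2, and neither had an unadjusted p under 0.05. FTO, on chromosome 16 from 53701692 to 54158512, had 51.0, 50.5 and 51.4 CPM in shNSUN2 and 58.1, 32.4 and 28.8 CPM in FaDu. The shNSUN2 libraries were nearly equal and lay inside the FaDu range, because FaDu replicate 1 was higher than they were. The log2 fold change was 0.36 (95% interval -0.22 to 0.94, edgeR adjusted p = 0.363). Without FaDu replicate 1 it was 0.74 and passed (edgeR adjusted p = 0.0345), so the outcome for FTO rests on 1 library. ALKBH5, on chromosome 17 from 18183078 to 18209954, had 73.4, 71.6 and 91.2 CPM in shNSUN2 and 73.6, 70.1 and 65.9 CPM in FaDu. The groups overlapped, at a log2 fold change of 0.17 (95% interval -0.14 to 0.48, edgeR adjusted p = 0.415). Without shNSUN2 replicate 3, its highest library, ALKBH5 was at 0.057 (edgeR adjusted p = 0.701).

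No YTHDF reader passed the edgeR test, although 1 was at an unadjusted p under 0.05 and DESeq2 called that one, YTHDF1, higher. YTHDF1, on chromosome 20 from 63195429 to 63216234, had 127, 102 and 142 CPM in shNSUN2 and 93.7, 87.9 and 89.0 CPM in FaDu. Every shNSUN2 library was above every FaDu library, as in 20.3% of all tested genes. The log2 fold change was 0.45 (SE 0.14, 95% interval 0.12 to 0.78), with an unadjusted p of 0.0134 and an edgeR adjusted p of 0.0634. It passed without shNSUN2 replicate 2, at 0.58 (edgeR adjusted p = 0.0244), and without replicate 3 it was 0.34 (edgeR adjusted p = 0.068).

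YTHDF2 and YTHDF3 varied far more between replicates than most genes did. YTHDF2, the family member known to recruit the CCR4-NOT deadenylase, lies on chromosome 1 from 28736621 to 28769775. It had 22.0, 30.7 and 79.7 CPM in shNSUN2 and 83.5, 29.7 and 69.2 CPM in FaDu. Each group thus held libraries near 30 CPM or below beside libraries near 80. YTHDF3, on chromosome 8 from 63168553 to 63212786, had 28.8, 77.0 and 38.6 CPM in shNSUN2 and 20.1, 93.5 and 21.0 CPM in FaDu. Replicate 2 was the high library in both groups.

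The SD of log2 CPM within groups was 0.88 for YTHDF2 and 1.03 for YTHDF3, at the 98.7th and 99.1st percentile of 9676 genes of at least 10 CPM, whose median was 0.19. Each of these 2 genes had at least 1232 and at most 5382 estimated counts in a library. The log2 fold changes were -0.46 for YTHDF2 (95% interval -1.87 to 0.94, edgeR adjusted p = 0.629) and 0.10 for YTHDF3 (95% interval -1.67 to 1.87, edgeR adjusted p = 0.939). Leaving out 1 library moved YTHDF2 widely, to -1.21 without shNSUN2 replicate 3 and to -0.13 without shNSUN2 replicate 1 (edgeR adjusted p = 0.19 and 0.903). Changes of more than 2-fold in either direction lie inside the YTHDF3 interval, so its comparison without a replicate block holds little information. With the replicate number as a block YTHDF3 was at 0.37 and not called (edgeR adjusted p = 0.342). Its SE was 0.24 with the block and 0.72 without it.

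**Figure D2:**
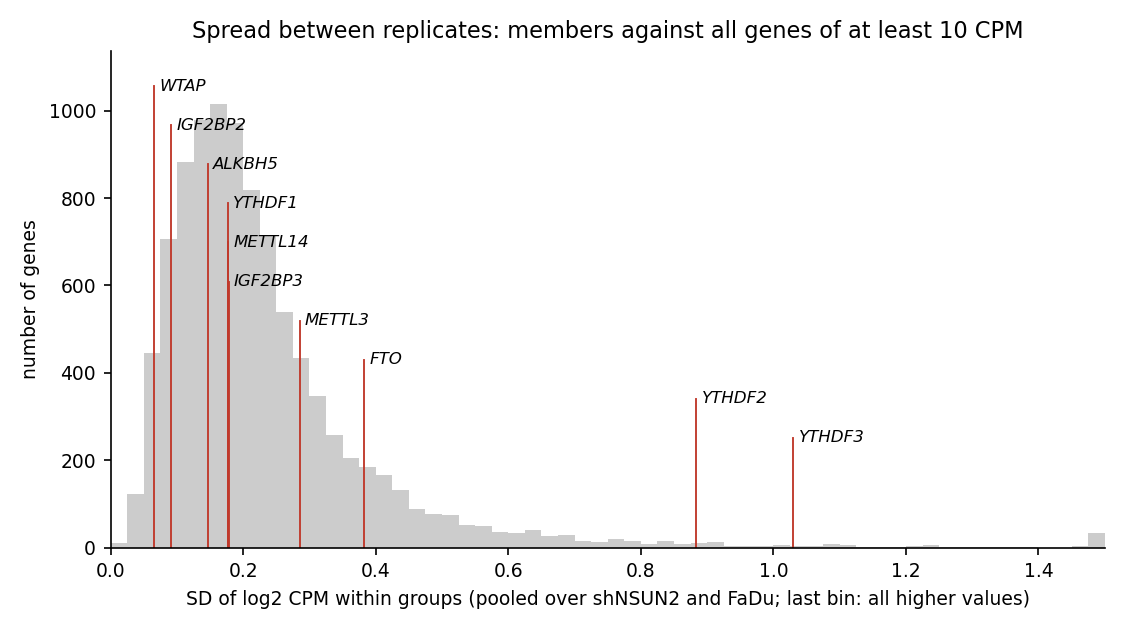
Distribution over 9676 genes of the SD of log2 CPM within groups, pooled over shNSUN2 and FaDu, with each member marked by a red line. WTAP and IGF2BP2 lie at the low end, at 0.066 and 0.091, and YTHDF2 and YTHDF3 in the far upper tail, at 0.88 and 1.03.

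IGF2BP2 had the smallest adjusted p and the largest fold change of the members. The gene lies on the minus strand of chromosome 3 from 185643739 to 185825056 and encodes an RNA-binding protein with RRM and KH domains, known also from type 2 diabetes genetics. It had 17.5, 16.3 and 14.7 CPM in shNSUN2 libraries, against 39.7, 40.2 and 40.5 CPM in FaDu libraries. The groups were far apart and each was tight, with means of 16.1 ± 1.43 CPM in shNSUN2 and 40.1 ± 0.376 CPM in FaDu (SD, n = 3 each). The log2 fold change was -1.31 (SE 0.13, 95% interval -1.60 to -1.02, edgeR adjusted p = 0.00091). It kept its direction and its call in all 13 alternatives, between -1.39 and -1.25, and was -1.25 without shNSUN2 replicate 3.

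IGF2BP3, an oncofetal member of the family on chromosome 7 from 23310209 to 23470467, had 51.5, 43.0 and 37.0 CPM in shNSUN2 and 38.6, 40.3 and 43.2 CPM in FaDu. The FaDu values lay inside the shNSUN2 range, and the log2 fold change was 0.11 (95% interval -0.24 to 0.45, edgeR adjusted p = 0.665). MALSU1 shares 17.9% of its exon bases on the opposite strand and had a log2 fold change of -0.06 (SE 0.21, edgeR adjusted p = 0.883). IGF2BP1, which completes the family and is not among the 10, had 43.0, 39.8 and 51.0 CPM in shNSUN2 and 40.3, 33.6 and 32.5 CPM in FaDu, at a log2 fold change of 0.33 (95% interval -0.01 to 0.67, edgeR adjusted p = 0.161).

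The make-up of the IGF2BP family differed between the groups. In TPM (counts per merged exon length, as a part of the library), IGF2BP2 made up 25.3% ± 1.51 of the family in shNSUN2 and 49.4% ± 0.963 in FaDu (SD, n = 3 each). IGF2BP1 made up 36.5% ± 5.605 in shNSUN2 and 22.7% ± 2.50 in FaDu. IGF2BP3 made up 38.1% ± 4.36 in shNSUN2 and 27.9% ± 1.69 in FaDu. The ratio of IGF2BP3 to IGF2BP2 was 1.64, 1.470 and 1.41 in shNSUN2 libraries and 0.541, 0.558 and 0.594 in FaDu libraries, without overlap. The 3 genes summed to 45.6, 39.2 and 35.6 TPM in shNSUN2 and 46.2, 46.7 and 49.9 TPM in FaDu. These shares and ratios are a description, without a test of their own, and their size depends on the length used. With the longest transcript in place of merged exons, IGF2BP3 averaged 23.4 TPM in shNSUN2 and 21.0 TPM in FaDu. IGF2BP2 then averaged 9.90 TPM in shNSUN2 and 23.8 TPM in FaDu. As parts of a whole the shares depend on one another, and by level neither IGF2BP1 nor IGF2BP3 passed the edgeR test.

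**Figure D3:**
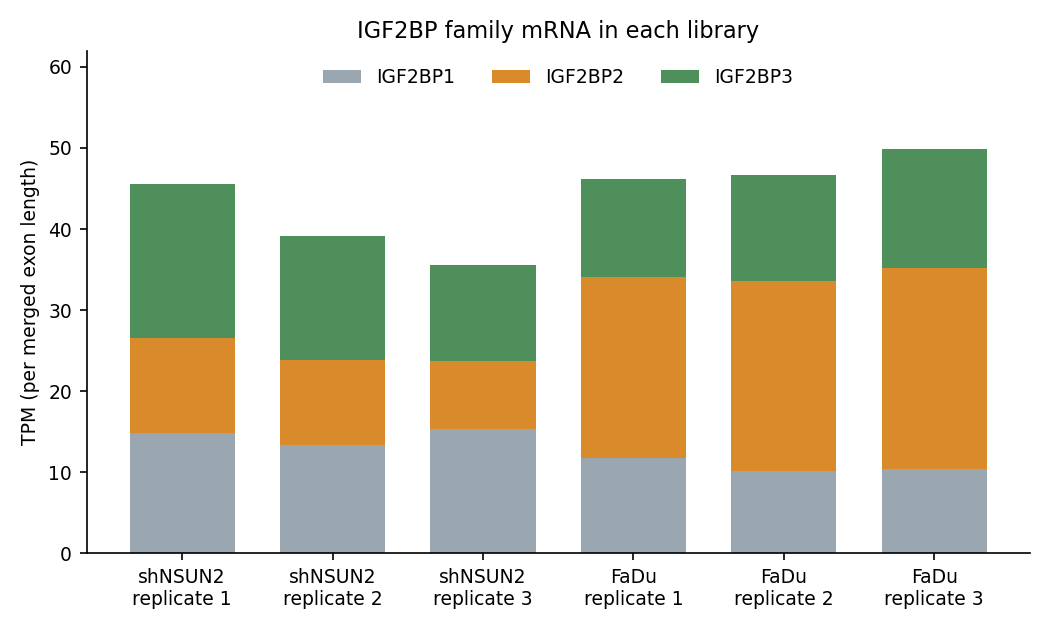
TPM of IGF2BP1, IGF2BP2 and IGF2BP3, stacked per library on an axis from 0, with the 3 shNSUN2 libraries left of the 3 FaDu libraries. The IGF2BP2 part is 8.45 to 11.6 TPM in shNSUN2 and 22.3 to 24.8 TPM in FaDu, and the summed bar is 35.6 to 45.6 TPM in shNSUN2 and 46.2 to 49.9 TPM in FaDu.

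The 3 genes whose log2 CPM followed that of IGF2BP2 most closely over the 6 libraries were CLMP, SPOCK1 and NOS1, among genes with a mean of at least 5 CPM over the 6 libraries. CLMP encodes a tight junction adhesion protein, SPOCK1 a matrix proteoglycan and NOS1 a nitric oxide synthase. Pearson's r was 1.000, 0.999 and 0.999, mostly from the step between the groups that they share. CLMP had 10.2, 9.17 and 7.98 CPM in shNSUN2, against 30.2, 32.5 and 31.5 CPM in FaDu. NOS1 had 1.68, 1.33 and 1.18 CPM in shNSUN2, against 11.2, 11.1 and 10.4 CPM in FaDu, so it met that mean through the FaDu libraries alone.

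Per exon length, the order of the members differed between the groups by 2 ranks each for METTL3, YTHDF2 and IGF2BP2, and by at most 1 rank for the others. In shNSUN2, YTHDF1 was highest at 111 ± 14.7 TPM, before ALKBH5 at 72.9 ± 4.83 and METTL3 at 46.1 ± 7.47 TPM (SD, n = 3). In FaDu, YTHDF1 at 75.8 ± 2.41 TPM and ALKBH5 at 60.7 ± 0.682 TPM also led, and METTL3 followed WTAP at 24.2 ± 2.81 TPM. YTHDF2 was the fifth in shNSUN2 at 32.8 ± 20.6 TPM and the third in FaDu at 43.6 ± 19.6 TPM, with overlapping ranges. FTO and METTL14 were the lowest in both groups, at 7.09 ± 0.484 and 5.82 ± 1.15 TPM in shNSUN2 and 5.11 ± 1.84 and 5.31 ± 0.853 TPM in FaDu, with overlapping ranges. METTL3, WTAP, YTHDF2, YTHDF3 and IGF2BP3, in that order, each overlapped their neighbour in shNSUN2. In FaDu the same held of YTHDF2 with WTAP, METTL3 with IGF2BP2, IGF2BP2 with YTHDF3, and YTHDF3 with IGF2BP3. The order depends on the length used. With the longest transcript in place of merged exons, METTL3 moved past ALKBH5 in shNSUN2, at 81.4 and 64.0 TPM.

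**Figure D4:**
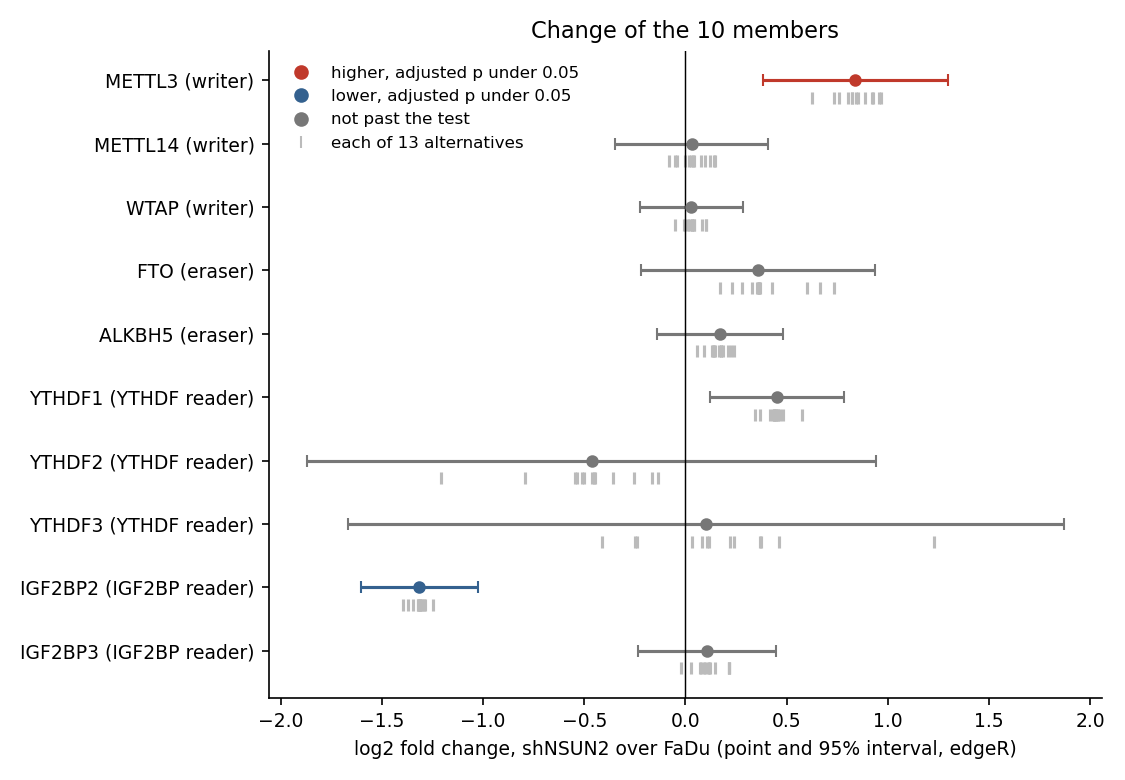
Log2 fold change of each member, shNSUN2 over FaDu, as a point with its 95% interval, coloured by the edgeR call, with the values under 13 alternatives as grey ticks below. METTL3 at 0.84 and IGF2BP2 at -1.31 are coloured as called, and the ticks of YTHDF3 run from -0.41 to 1.23.

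Outside the 10 members, 30 further genes of the m6A system were listed, and all were tested. In edgeR 5 of these rose, none fell and 25 did not pass, which is 16.7% called against 18.5% of all tested genes. At an unadjusted p under 0.05 there were 10 of 30, against 6434 of all 19081 tested genes. Their median log2 fold change was 0.18, and 22 were above 0 and 8 below, against 9469 above and 9612 below over all tested genes. The reader HNRNPA2B1, a nuclear protein linked to m6A in splicing and microRNA processing, had 1404, 1321 and 1167 CPM in shNSUN2 and 782, 791 and 713 CPM in FaDu. It rose by 0.77 on the log2 scale (SE 0.11, edgeR adjusted p = 0.00425), and it was called in all 13 alternatives.

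The other 4 that rose changed less and were lost more easily. ELAVL1, the AU-rich element binding protein HuR, had a log2 fold change of 0.55 (SE 0.14, edgeR adjusted p = 0.0284). UPF1, the helicase of nonsense-mediated decay that also acts with YTHDF2, was at 0.54 (SE 0.15, edgeR adjusted p = 0.0422). RBMX, a splicing factor that binds RNA opened by m6A, was at 0.45 (SE 0.13, edgeR adjusted p = 0.0413). RBM15B, which guides the writer complex to its targets, was at 0.43 (SE 0.12, edgeR adjusted p = 0.0467). Of its merged exon bases 19.95% also belong to DCAF1 on the opposite strand, which had 28526 counts in all against 31395 for RBM15B. Reads from these shared bases cannot be assigned, as for METTL3. ELAVL1, UPF1, RBMX and RBM15B each lost the call without shNSUN2 replicate 1 and without any one FaDu replicate, at edgeR adjusted p of 0.0644 to 0.167. Without a FaDu replicate ELAVL1 was at 0.51 to 0.57, UPF1 at 0.49 to 0.59, RBMX at 0.45 to 0.46 and RBM15B at 0.42 to 0.45. Over all tested genes those fits called 478 to 626 higher, against 1629 with all libraries.

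By role, 1 of 5 other writer complex genes rose, 3 of 13 other readers and 1 of 3 decay partners of YTHDF2. None of 5 other methyltransferases and none of 4 genes of S-adenosylmethionine supply passed the edgeR test, with 2 and 1 of them at an unadjusted p under 0.05. DESeq2 likewise called none of those 9 genes, and called 5 higher and none lower among the 30. Among all tested genes edgeR called 8.54% higher and 18.5% in all, and 6434 of 19081 were at an unadjusted p under 0.05. Each role holds too few genes for these counts to tell the roles apart.

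**Figure D5:**
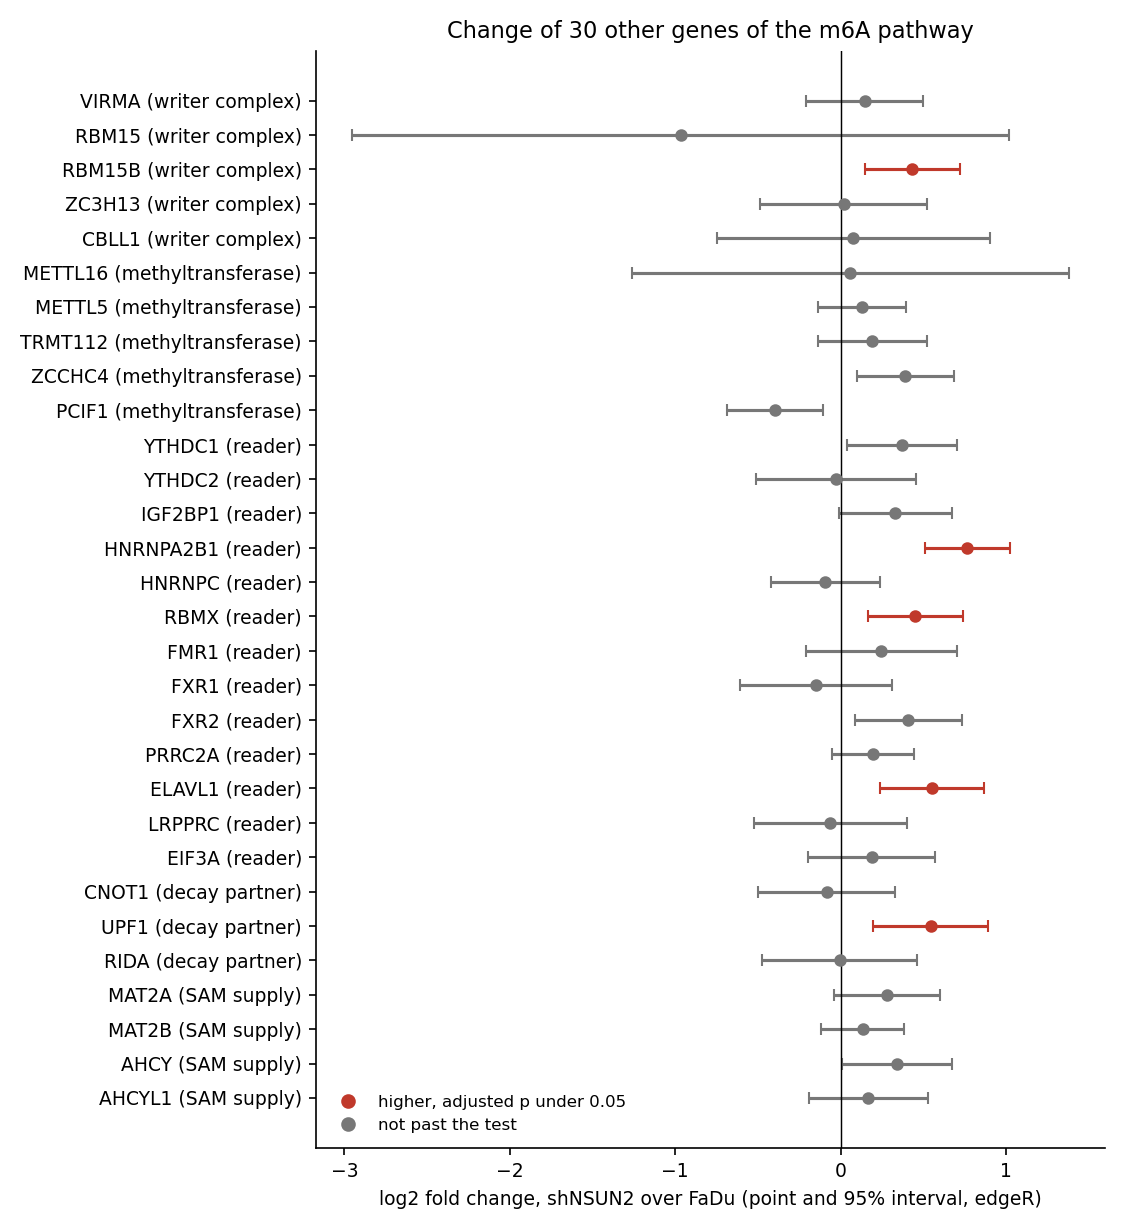
Log2 fold change, shNSUN2 over FaDu, of the 30 other genes of the m6A system, grouped by role, as points with 95% intervals, red where edgeR called them higher. HNRNPA2B1 lies highest at 0.77, and none is coloured as lower.

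A further list held 12 mRNAs reported in other cells as bound by an IGF2BP protein, of which 10 were tested. LIN28B was listed at 0 in every library and IGF2 had at most 0.089 CPM. Of the 10 tested, 2 rose, 1 fell and 7 did not pass, with a median log2 fold change of -0.0048. Over all tested genes 8.54% were called higher and 9.97% lower, 18.5% in all. CCND1, which encodes cyclin D1, had 1992, 1447 and 2226 CPM in shNSUN2 and 675, 658 and 712 CPM in FaDu, at a log2 fold change of 1.469 (SE 0.16, edgeR adjusted p = 0.00165). HMGA1, a chromatin protein, was higher by 0.78 (SE 0.17, edgeR adjusted p = 0.0194). Its call was lost without any one FaDu replicate, at 0.73 to 0.86 and edgeR adjusted p of 0.0548 to 0.0848. CD44, a hyaluronan receptor, was at -0.76 (SE 0.13, edgeR adjusted p = 0.00737), with 82.2, 65.1 and 77.2 CPM in shNSUN2 and 127, 121 and 131 CPM in FaDu. The called members of this list thus moved in both directions.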

How the data were processed

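RNA sequencing of 6 FaDu libraries was analysed, 3 with a hairpin against NSUN2 and 3 without. The authors deposited 1 table of estimated counts per Ensembl gene. Bowtie 0.12.2, HISAT2 2.0 and StringTie 1.3.0 are named in the submitters' processing notes, with no role for any of them. The notes also name mm8, a mouse build, although the identifiers are human, and no source used here gives a human build. All counts were whole, so none was rounded. Counts of 4 were 3.25 to 3.81 times as frequent as counts of 3 and 5 on average, so low counts carry more error than their size shows, and no counting interval is given.

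Of 58825 identifiers 58817 had a symbol. Positions and lengths are those of GENCODE 29 on GRCh38. Genes were tested in edgeR 4.0.16 (R 4.3.3) by glmQLFit and glmQLFTest, robust, two-sided, with TMM scaling and filterByExpr (minimum count 10, minimum total 15), over all 19081 kept genes, with calls at adjusted p under 0.05 (Benjamini-Hochberg). The SE is the log2 fold change divided by the square root of F. An exact permutation test of 3 against 3 libraries cannot give less than 0.1 and was printed for no member. TPM divide counts by merged exon length. Alternatives were 2 other scalings, no filter, DESeq2 1.42.0, a replicate block, GC and length offsets with and without the block, and leaving out each library. The procedure was tested on simulated data.

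Named were NSUN2, the 10 members and called genes of the fixed lists. IGF2BP1, which completes its family, MYC, RBM15, METTL16 and the genes overlapping members or RBM15B were added after their values were seen. Members and lists were chosen with earlier results of these data known.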

Additional observations from a re-analysis of the deposited data

How the results depend on the processing

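The members had 698 to 9592 estimated counts per library, and YTHDF2 and YTHDF3 had the widest spread between replicates of the 10. Over 13 alternatives for each of the 10 members, 110 of 130 fold changes kept their direction and their side of the threshold, 4 lost a call, 5 gained one and 11 changed sign, all of the last for uncalled members. IGF2BP2, HNRNPA2B1, CCND1, CD44 and NSUN2 were called in every alternative. The cause of the changes below was not tested.

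The design text speaks of 3 pairs. Over all tested genes the replicate numbers gave no sign of pairing, since the deviations of same-numbered libraries correlated at -0.031, 0.016 and 0.014. YTHDF3, however, was highest in replicate 2 of both groups, and its SE was 0.72 without the replicate block and 0.24 with it. With the replicate block 969 genes were higher, no member was (METTL3 at 0.82, edgeR adjusted p = 0.0585) and 1 other pathway gene was. With GC and length offsets 2707 genes were higher, as were 2 members (METTL3 and YTHDF1) and 9 other pathway genes, with 1 lower. With these offsets and the block together METTL3 was at 0.89 (edgeR adjusted p = 0.0755) and YTHDF1 at 0.45 (edgeR adjusted p = 0.0456). DESeq2 called 2 members higher, METTL3 and YTHDF1 (DESeq2 adjusted p = 0.00103 and 0.0449). Of the other pathway genes, 2 were higher and 1 lower with upper-quartile scaling, and 3 were higher without a filter. Upper-quartile scaling moved METTL14 to -0.051 and WTAP to -0.049, and leaving out the filter moved them to -0.00186 and -0.00175.

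Leaving out each library in turn gave 478 to 2090 genes higher and 861 to 2181 lower, 0 to 2 members higher and 1 lower each time, and 1 to 9 other pathway genes higher and 0 to 1 lower. In these fits METTL14 ranged from -0.082 to 0.12, WTAP from -0.0048 to 0.082, YTHDF2 from -1.21 to -0.13, YTHDF3 from -0.41 to 1.23 and IGF2BP3 from -0.022 to 0.22.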
